A study of Homo sapiens with 8 samples.

Results

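Sites of p53 binding listed after DNA damage by doxorubicin were compared with those listed after inhibition of MDM2 by Nutlin-3 in U2OS, a human osteosarcoma cell line with wild-type endogenous p53. The sites were the 3087 peaks of the doxorubicin library and the 18159 peaks of the Nutlin-3 library, which made up 21246 of the 24535 peaks in the 4 lists of the series. All peaks of each list were taken, and a peak was called shared when at least 1 of its bases also lay in a peak from the other treatment. Cells had received 0.6 µg/ml doxorubicin or 10 µM Nutlin-3 for 24 h, and p53 was precipitated with the antibody DO-1 for chromatin immunoprecipitation and sequencing (ChIP-seq). The controls were cells without treatment (for doxorubicin, 496 peaks) and cells with 0.1% DMSO (for Nutlin-3, 2793 peaks). There was 1 ChIP library and 1 input library per condition and no replicate, so differences between the treatments were described and not tested. The treatments also differ in solvent control, and solvent and agent cannot be told apart from these 2 lists alone.

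The tumour suppressor p53 is a transcription factor that binds DNA as a tetramer at paired decamer motifs. Its level is held low by MDM2, a ubiquitin ligase and itself a p53 target, which marks p53 for degradation. Doxorubicin poisons topoisomerase II, and the resulting DNA breaks activate kinases that modify p53 and release it from MDM2. Nutlin-3 fills the pocket of MDM2 that holds p53 and so stabilises p53 without breaking DNA. Known targets include CDKN1A (the cell cycle inhibitor p21), MDM2, BBC3 and BAX (mitochondrial apoptosis), FAS (a death receptor) and XPC (DNA repair). Peaks were deposited as positions on the build hg18, and no annotation of hg18 was used here. No peak was therefore assigned to these or other genes, and sites are given by position.

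Of the doxorubicin peaks 1959 (63.5%, exact 95% binomial interval 61.7 to 65.2) shared at least 1 bp with a Nutlin-3 peak, and 1967 Nutlin-3 peaks (10.8%, 10.4 to 11.3) shared at least 1 bp with a doxorubicin peak. Such intervals cover counting error only and treat peaks as independent. The share of doxorubicin peaks rests on the criterion: it was 33.7% when the overlap had to cover at least 50% of both peaks and 21.03% with peaks of at least 80 bp in both lists. The reads behind each list are unknown, and the list lengths can reflect depth and peak calling as well as binding. The sequence in common was 84.5 kb, or 24.4% of the bases in doxorubicin peaks and 5.25% of those in Nutlin-3 peaks.

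The relation was almost entirely 1 to 1. Of the shared doxorubicin peaks 1949 met a single Nutlin-3 peak and 10 met 2, and 1965 Nutlin-3 peaks met a single doxorubicin peak and 2 met 2, which gave 1969 overlapping pairs. The midpoints of a pair lay a median of 20 bp apart, which is the step of the grid on which the peaks were deposited. Because pairs were chosen for overlap and most peaks were narrow, small offsets follow from the criterion, and the offsets are given as a description. Midpoints were within 20 bp of each other in 1116 pairs (56.7%) and within 40 bp in 1513 (76.8%), and were over 100 bp apart in 119 (6.04%). The largest offset was 680 bp. Neither side was favoured: the Nutlin-3 midpoint was at the higher position in 828 pairs, at the lower in 834 and at the same place in 307.

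**Figure D1:**
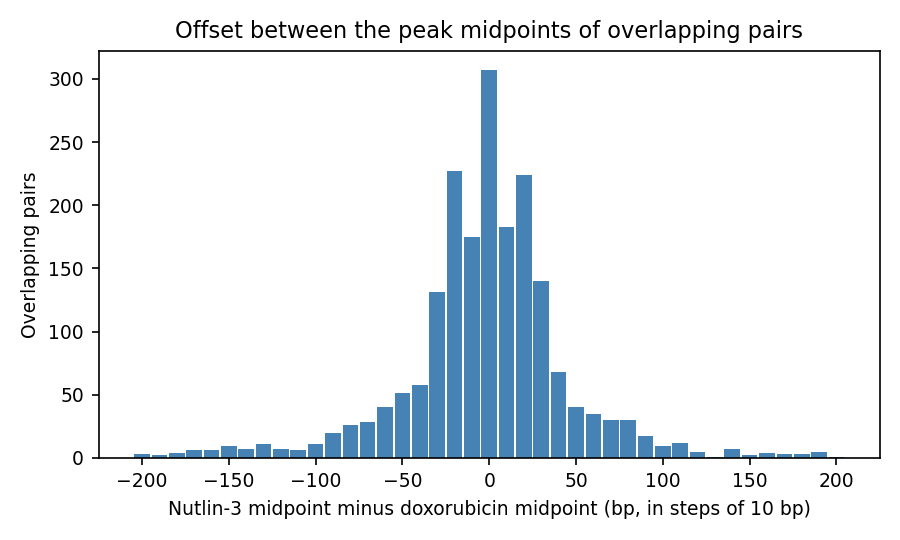
Number of overlapping pairs (vertical axis) by the Nutlin-3 midpoint minus the doxorubicin midpoint (horizontal axis, bp, in steps of 10 bp), with 1 library per treatment. The bars centre on 0, with 307 pairs at exactly 0 and 15 pairs over 200 bp apart, which are not drawn.

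Bounds were identical in 231 pairs (11.7%). Of these, 201 were 40 bp wide, the smallest width in the lists, 23 were 60 bp wide and 7 were wider, up to 180 bp. The doxorubicin peak lay inside a larger Nutlin-3 peak in 475 pairs (24.1%), and the Nutlin-3 peak lay inside a larger doxorubicin peak in 488 (24.8%). The remaining 775 pairs overlapped in part. The stretch in common was 20 bp in 582 pairs, 40 bp in 1013 and longer in 374. The 582 pairs stood just inside the criterion of 1 bp. Just outside it were 224 doxorubicin peaks that adjoined a Nutlin-3 peak without a base in common.

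Widths at shared sites were balanced between the treatments, although the Nutlin-3 list was far longer. Width is the only deposited property of a peak other than its place, and its relation to the amount of bound p53 was not tested. Nutlin-3 was the wider peak in 661 pairs (33.6%), doxorubicin in 708 (36.0%), and the widths were equal in 600 (30.5%). The median log2 ratio of the Nutlin-3 width to the doxorubicin width was 0, with quartiles of -0.58 and 0.58, and the mean was 0.02. Mean widths in the pairs were 89.3 bp for Nutlin-3 and 83.5 bp for doxorubicin. The medians went the other way, at 40 bp for Nutlin-3 and 60 bp for doxorubicin. Ratios of at least 4 occurred in favour of Nutlin-3 in 168 pairs (8.53%) and in favour of doxorubicin in 134 (6.81%). The median log2 ratio was also 0 on each of the 22 autosomes. With equal widths so common, a median of 0 can hide an imbalance, and pairs with either peak wider were not counted per autosome.

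The balance depended on how neighbouring peaks were treated and on the narrow peaks. When peaks of a list within 500 bp of each other were first joined, Nutlin-3 was the wider in 1155 of 1987 pairs and the median log2 ratio rose to 0.74. With peaks of at least 80 bp in both lists, 223 pairs were left, Nutlin-3 was the wider in 125 and the median was 0.22.

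The width of a site with doxorubicin said little about its width with Nutlin-3. Across the 1969 pairs the Spearman rho was 0.08, and it was 0.07 over the 1936 pairs outside dense runs of doxorubicin peaks (described below). Pairs share their libraries and the grid, so rho is given as a description. Among the 863 pairs with a doxorubicin peak of 40 bp, the Nutlin-3 peak was also 40 bp in 493 and at least 300 bp in 39 (4.52%). Among the 46 pairs with a doxorubicin peak of at least 300 bp, the Nutlin-3 peak was 40 bp in 18 and at least 300 bp in 5 (10.9%). In the other direction, 39 of the 92 Nutlin-3 peaks of at least 300 bp met a doxorubicin peak of 40 bp, and the median doxorubicin width was 60 bp in every Nutlin-3 width class.

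**Figure D2:**
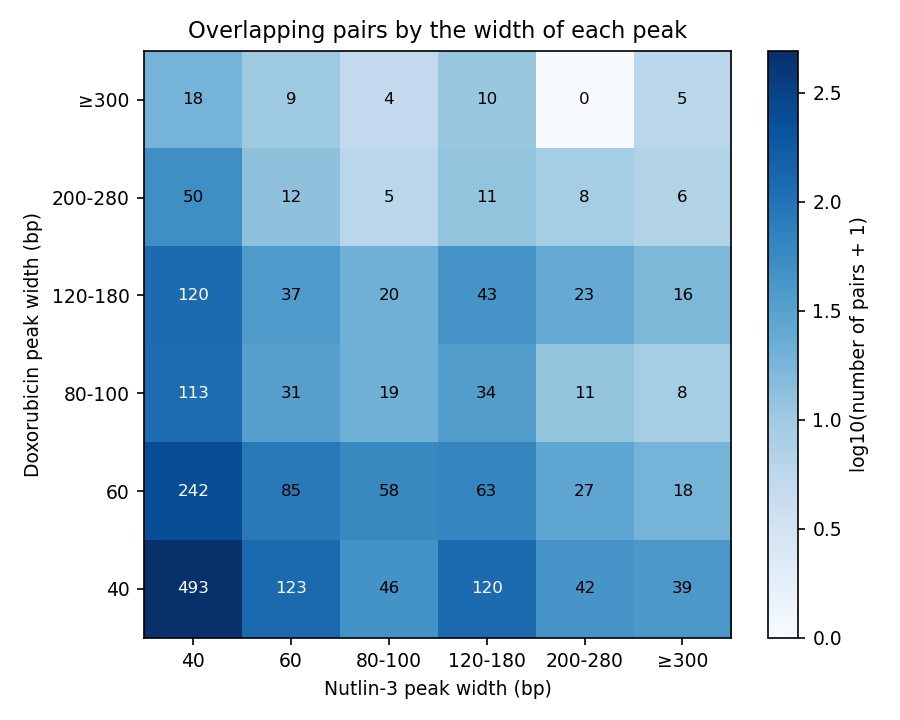
Number of overlapping pairs (printed in each cell, colour on a log10 scale) by the width of the doxorubicin peak (vertical axis, bp) and of the Nutlin-3 peak (horizontal axis, bp). The fullest cell holds 493 pairs of 40 bp in both lists, and only 5 pairs are at least 300 bp wide in both.

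The widest shared sites lay mostly in different places in the lists. The 5 pairs with the widest doxorubicin peaks all lay in dense runs of doxorubicin peaks. They were at chrY:11929171-11930711 (1540 bp, against 60 bp with Nutlin-3) and at chrY:11935831-11937111 (1280 bp against 120 bp), at chr16:33870571-33871611 (1040 bp, meeting Nutlin-3 peaks of 860 bp and 160 bp), and at chr2:132742071-132743031 (960 bp against 100 bp). The chromosome 16 peak counts as 2 pairs, and the pair with the Nutlin-3 peak of 860 bp is also among the 5 widest by Nutlin-3. Of the 5 pairs with the widest Nutlin-3 peaks, 2 lay in the same runs on chromosomes 2 and 16. The other 3 were dispersed, at chr19:34850771-34851531 (760 bp, against 140 bp with doxorubicin), at chr22:28922211-28922931 (720 bp against 160 bp) and at chr1:231381991-231382671 (680 bp against 120 bp).

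Where Nutlin-3 was widest relative to doxorubicin, a doxorubicin peak of 40 bp lay inside a long Nutlin-3 peak. These 5 sites were at chr15:91293871-91294511 (640 bp, log2 ratio 4.0), at chr2:110264251-110264871 (620 bp, 3.95), at chr17:31466551-31467151 (600 bp, 3.91), at chr1:40215211-40215731 (520 bp, 3.70) and at chr4:121338931-121339431 (500 bp, 3.64). None lay in a dense run or in untreated cells, and the doxorubicin peaks on chromosomes 15, 1 and 4 also met a DMSO peak. At the other extreme a long doxorubicin peak met 1 or 2 small Nutlin-3 peaks. Besides the 1540 bp peak on chromosome Y (log2 ratio -4.68), these were a peak of 780 bp at chr2:240293631-240294411, over Nutlin-3 peaks of 40 bp (-4.28) and 60 bp (-3.70), and a peak of 700 bp at chr20:26137791-26138491, over 2 Nutlin-3 peaks of 40 bp (-4.13 each). The chromosome 20 peak was also found with DMSO and in untreated cells.

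Shared sites that DMSO also held were narrower on average in both lists than those without DMSO. In the 1133 pairs whose doxorubicin peak met a DMSO peak, Nutlin-3 was the wider in 27.8%, doxorubicin in 37.1%, and the mean widths were 78.7 bp and 77.9 bp. In the 836 pairs without DMSO, Nutlin-3 was the wider in 41.4% and doxorubicin in 34.4%, with means of 104 bp and 91.1 bp. The median log2 ratio was 0 in both classes. In the 14 pairs whose doxorubicin peak met an untreated peak, doxorubicin was the wider in 9 and the median log2 ratio was -2.64, with mean widths of 581 bp for doxorubicin and 231 bp for Nutlin-3.

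Sharing of doxorubicin peaks varied widely between chromosomes. Of the 24 chromosomes with at least 50 doxorubicin peaks, chromosome 15 had the highest share, with 67 of 86 peaks (77.9%, 67.7 to 86.1), followed by chromosome 6 with 105 of 137 (76.6%) and chromosome 22 with 45 of 59 (76.3%). The lowest was chromosome Y, with 6 of 104 (5.77%, 2.15 to 12.1). Whether the reads placed on chromosome Y came from that chromosome was not examined, so its peaks are given as listed positions only. Among autosomes the lowest were chromosome 21, with 25 of 96 (26.04%, 17.6 to 36.0), chromosome 16, with 58 of 152 (38.2%, 30.4 to 46.4), and chromosome 4, with 88 of 160 (55.0%, 46.9 to 62.9). These 3 autosomes had intervals wholly below the overall share, and 6 autosomes had intervals wholly above it. Chromosome X had 44 of 78 (56.4%, 44.7 to 67.6). Chromosome M held 2 doxorubicin peaks, both unshared, and 0 Nutlin-3 peaks.

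Part of the low shares lay where doxorubicin peaks were packed together. Dense runs, defined after the positions were seen as at least 5 doxorubicin peaks with gaps of at most 20 kb, numbered 34 and held 424 doxorubicin peaks (13.7%) in 1003 kb. They held 48 Nutlin-3, 17 DMSO and 140 untreated peaks. The definition uses doxorubicin peaks alone, which sets part of their excess over the other lists. Of the 424 peaks 31 were shared (7.31%, 5.02 to 10.2), against 1928 of the 2663 peaks outside the runs (72.4%, 70.7 to 74.1). Runs took 54 of the 96 peaks on chromosome 21, 64 of 152 on chromosome 16, 49 of 160 on chromosome 4 and 88 of 104 on chromosome Y. They also took 58 of 276 on chromosome 2, where 61.6% of all peaks were shared, 29 of 173 on chromosome 10 (62.4%) and 23 of 78 on chromosome X. Outside them the shares rose to 59.5% (43.3 to 74.4), 63.6% (52.7 to 73.6) and 73.0% (63.7 to 81.0) on chromosomes 21, 16 and 4. On chromosome Y 0 of the remaining 16 peaks were shared, with an exact interval reaching 20.6%. The autosomes outside the runs spanned 59.5% to 79.5%, and each of the 22 intervals held their joint share of 73.05%.

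**Figure D3:**
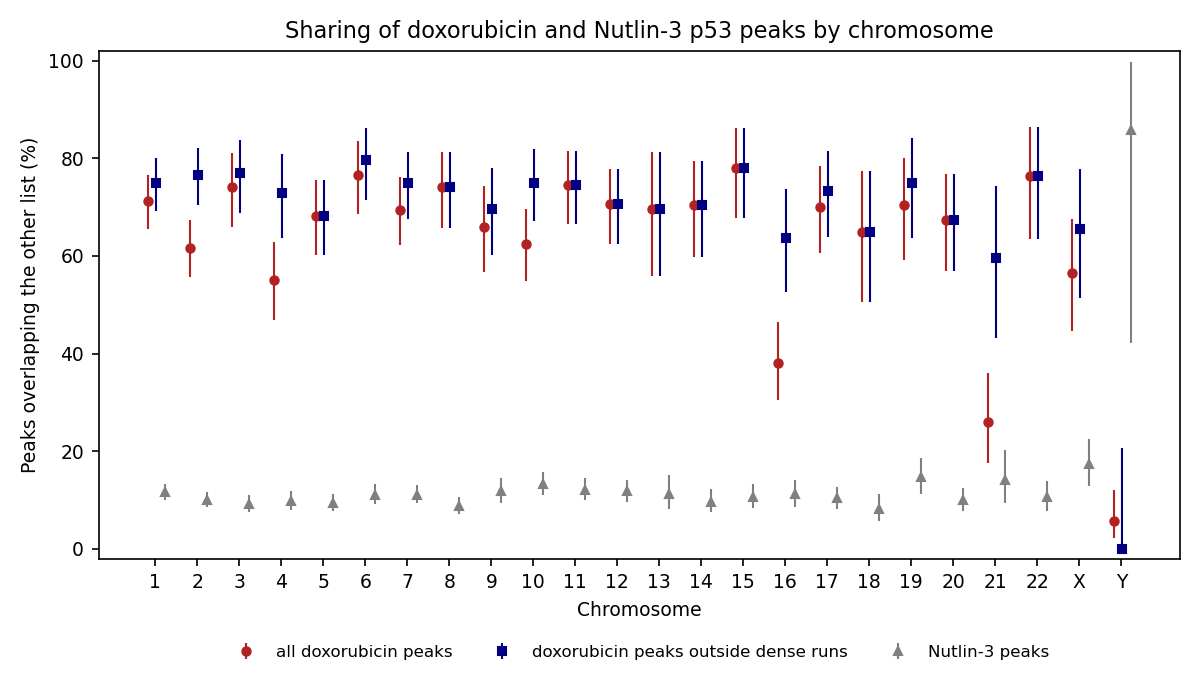
Percentage of peaks that overlap the other list (vertical axis) on each chromosome with at least 50 doxorubicin peaks (horizontal axis), with exact 95% binomial intervals that cover counting error only. Chromosomes 21, 16 and Y are low among all doxorubicin peaks (circles), chromosomes 21 and 16 reach 59.5% and 63.6% outside dense runs (squares), and the Nutlin-3 peaks (triangles) lie between 8.18% and 14.7% on autosomes.

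From the side of Nutlin-3 the autosomes were more alike. The share ran from 8.18% on chromosome 18 (35 of 428 peaks) to 14.7% on chromosome 19 (57 of 388), with 14.2% on chromosome 21 (25 of 176). Nutlin-3 peaks per doxorubicin peak ran from 1.83 on chromosome 21 and 3.48 on chromosome 16 to 8.46 on chromosome 8. Chromosome Y was the only chromosome other than M with fewer Nutlin-3 than doxorubicin peaks. Of its 7 Nutlin-3 peaks 6 were shared (85.7%, 42.1 to 99.6).

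The unshared doxorubicin peaks fell into a near and a far group. Of the 1128, 2 were on chromosome M, where Nutlin-3 had no peak, and the other 1126 lay a median of 12.7 kb from the nearest Nutlin-3 peak, with quartiles of 20 bp and 218 kb. Within 100 bp of a Nutlin-3 peak were 388 (34.4%), and 531 (47.1%) lay over 20 kb away. Between these, from 120 bp to 20 kb, were 207 (18.4%). A gap over 100 kb was seen for 376 (33.3%) and a gap over 1 Mb for 113 (10.02%).

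The near group was made mostly of peaks that touched a Nutlin-3 peak or missed it by a single grid step. There were 224 that adjoined a Nutlin-3 peak, 89 at 20 bp, 42 at 40 bp and 33 at 60 to 100 bp. The Nutlin-3 peak was at higher positions for 200 of these 388 and at lower positions for 188. They were narrow, with a median of 40 bp, and 218 (56.2%) had the smallest width, against 44.1% of shared peaks. A wider peak so near would more often have overlapped and counted as shared, so the definition sets part of this contrast. DMSO peaks overlapped 121 of them (31.2%) and untreated peaks 2 (0.515%). Among all 3087 doxorubicin peaks, 1254 met a DMSO peak and 171 met an untreated peak. If adjoining peaks counted as shared, 70.7% of doxorubicin peaks would be shared. Within 20 bp the share was 73.6%, and within 100 bp it was 76.03%. It then rose slowly, to 78.07% within 1000 bp and 82.7% within 20 kb. Outside dense runs these 5 values were 80.7%, 84.04%, 86.8%, 88.2% and 90.2%.

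**Figure D4:**
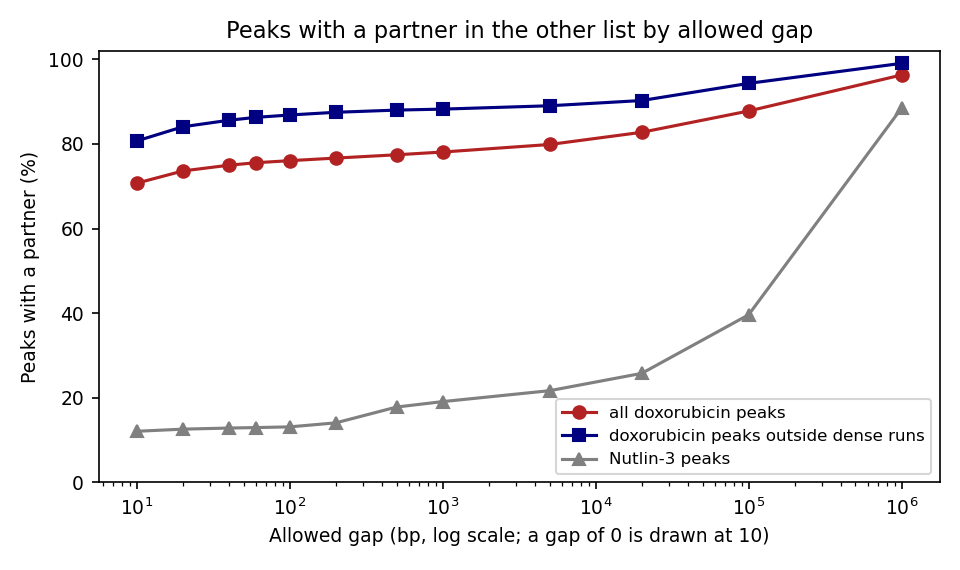
Percentage of peaks with a partner in the other list (vertical axis) by the gap allowed between the peaks (horizontal axis, bp, log scale, with a gap of 0 drawn at 10). Doxorubicin peaks go from 73.6% within 20 bp to 78.07% within 1000 bp, and Nutlin-3 peaks from 12.6% to 19.1% over the same range.

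The far peaks differed from the shared peaks in control and place. The 376 over 100 kb away had a median width of 90 bp, and 88 were at least 300 bp wide. Of these 376, 0 met a DMSO peak and 90 (23.9%) met an untreated peak. For all 531 over 20 kb away the median width was 60 bp, the same as for shared peaks, and 103 were at least 300 bp wide. A DMSO peak met 1 of the 531, and untreated peaks met 114 (21.5%). Of the shared peaks, by contrast, 1127 (57.5%) met a DMSO peak and 12 (0.613%) met an untreated one. Chromosomes Y, 21, 16, 4 and 10 held 231 of the 376, in the order 60, 48, 45, 43 and 35, and 226 (60.1%) lay in dense runs. In the runs, unshared peaks lay a median of 207 kb from a Nutlin-3 peak, and outside them the median was 60 bp.

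**Figure D5:**
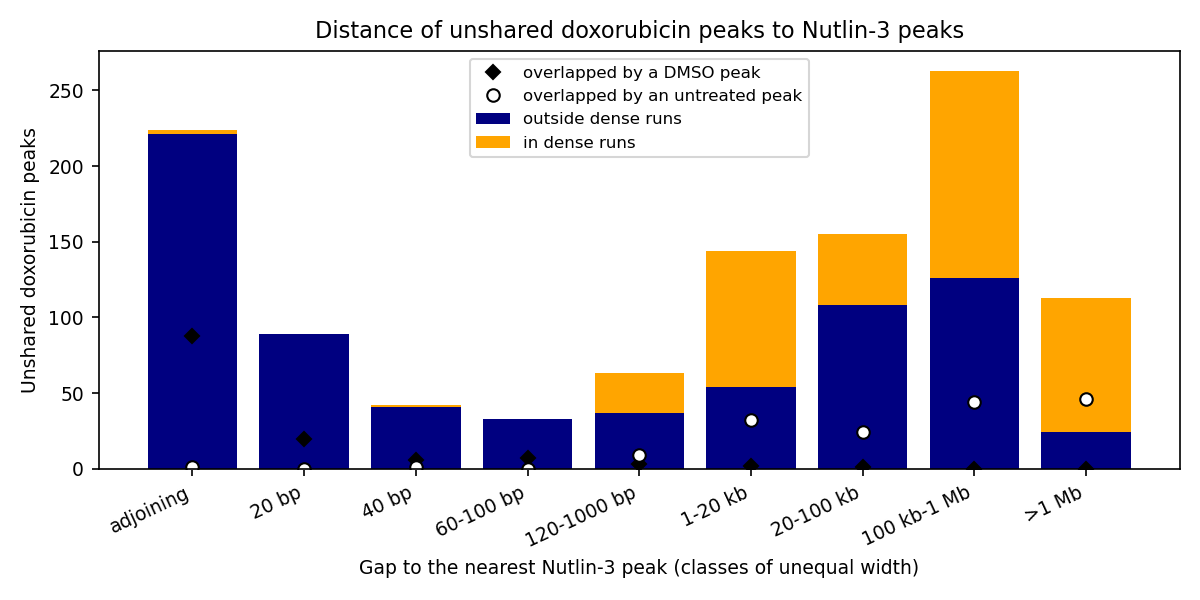
Number of unshared doxorubicin peaks (bars, vertical axis) by the gap to the nearest Nutlin-3 peak (horizontal axis, classes of unequal width), split by whether they lie in dense runs, with those met by a DMSO peak (diamonds) or an untreated peak (open circles). Adjoining peaks number 224, of which 88 met a DMSO peak, and the 113 peaks over 1 Mb away include 89 in dense runs and 46 that met an untreated peak.

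The widest unshared peaks within 1000 bp of a Nutlin-3 peak, and the widest over 1 Mb away, were in dense runs, 5 of 5 in each case. No peak of the near group, whose definition favours narrow peaks, was at least 300 bp wide. The 5 named within 1000 bp had gaps of at least 120 bp. Within 1000 bp of a Nutlin-3 peak the widest unshared doxorubicin peaks were at chrY:11928091-11928931 (840 bp, gap 640 bp), at chrY:11926311-11927131 (820 bp, gap 200 bp) and at chrY:11939591-11940391 (800 bp, gap 400 bp). The next were at chr1:141477971-141478651 (680 bp, gap 960 bp) and at chr1:141477131-141477751 (620 bp, gap 120 bp). Over 1 Mb away the widest were at chrY:57386271-57389611 (3340 bp), at chr6:58884471-58887311 (2840 bp), at chrY:57389891-57391631 (1740 bp) and at chrY:57392891-57394611 (1720 bp), and at chr16:44943311-44944331 (1020 bp). Their gaps were 45.45 Mb on chromosome Y, 1.31 Mb on chromosome 6 and 1.11 Mb on chromosome 16.

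Away from the runs, 150 unshared peaks lay over 100 kb from Nutlin-3. They had a median width of 40 bp, 0 met a DMSO peak and 31 (20.7%) met an untreated peak. The widest of them, chosen after their values were seen, was at chr2:161844491-161845211 (720 bp, gap 108 kb), with another of 440 bp before it, at chr2:161843351-161843791. The second and the third widest were at chrY:11247611-11248191 (580 bp, gap 599.7 kb) and at chrY:11250711-11251191 (480 bp, gap 603 kb). A further peak of 420 bp lay at chr4:80493331-80493751, at 553 kb from the nearest Nutlin-3 peak.

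Most dense runs held no Nutlin-3 peak, but the Nutlin-3 peaks in runs were mostly shared. Of the 34 runs 22 held 0 Nutlin-3 peaks, 10 held a shared peak and 23 held an untreated peak. Of the 48 Nutlin-3 peaks in runs 32 were shared (66.7%), against 1935 of 18111 outside them (10.7%). Runs were picked by crowding of doxorubicin peaks alone, which sets part of both contrasts. Of the runs 19 were no more than 2 Mb from the longest stretch of their chromosome without a peak in any list. How many doxorubicin peaks outside runs lay that near was not counted. The run at chr21:9787811-9833811 had 35 doxorubicin peaks with a median width of 160 bp and 0 peaks in each of the other 3 lists. A run at chr10:39147211-39190911, with 11 doxorubicin peaks, and a run at chr4:49329151-49351791, with 12, were likewise empty in the other 3 lists. These examples were chosen after their values were seen.

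A few neighbourhoods held several shared sites. Only 203 of the 1957 merged shared regions (10.4%) had another within 20 kb, and 12 neighbourhoods held at least 3. This grouping was made after the positions were seen. The fullest was at chrX:30719691-30734531, where 8 shared regions lay among 23 doxorubicin and 12 Nutlin-3 peaks in 14.8 kb, with 0 peaks from DMSO or untreated cells. Some doxorubicin peaks there were far wider than their partner or had none: the peak at chrX:30729111-30729451 (340 bp) met a Nutlin-3 peak of 60 bp, and the peak of 480 bp at chrX:30730531-30731011 met none. At chrX:30721771-30721831 the bounds were the same in both lists.

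At chr6:36742991-36758431 the relation was the reverse, with 5 doxorubicin, 11 Nutlin-3, 9 DMSO and 0 untreated peaks. Of the 5 doxorubicin peaks, which were 40 or 60 bp wide, 4 were shared. The remaining peak, at chr6:36753091-36753131, adjoined the Nutlin-3 peak at chr6:36753051-36753091, whose bounds were the same with DMSO. The 3 widest Nutlin-3 peaks of this neighbourhood, of 620 bp at chr6:36753651-36754271, 440 bp at chr6:36755931-36756371 and 200 bp at chr6:36755011-36755211, met no doxorubicin peak. DMSO peaks of 180 bp and 240 bp lay inside the first and the second of these.

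At chr4:78472991-78484411 all 5 doxorubicin peaks were shared, among 6 Nutlin-3 and 3 DMSO peaks. A Nutlin-3 peak of 320 bp at chr4:78472991-78473311 spanned 2 doxorubicin peaks of 40 bp at its ends, and the bounds at chr4:78482771-78482811 were the same in doxorubicin, Nutlin-3 and DMSO. At chr17:58147891-58163551 there were 4 doxorubicin peaks, all shared, with 4 Nutlin-3 and 2 DMSO peaks. Over the 12 neighbourhoods, 9 held a DMSO peak and 2 an untreated peak, those at chrY:11923231-11939371 and at chr2:132729031-132743031.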

How the data were processed

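Binding of p53 was measured by ChIP-seq in U2OS cells. The files the authors deposited give, per ChIP library, the start and end of each peak in bp on hg18, in 3 columns with no score, enrichment or read count. The submitters' processing notes name CASAVA and Bowtie 0.12.2. For the peak caller, its threshold and the use of the inputs, the sources used here give no statement. All widths were multiples of 20 bp, so positions lie on a grid. Whether starts count from 0 or 1 is not stated, and ends were taken to lie outside the peak.

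Overlaps, gaps and widths were computed with Python 3.11.15, numpy 2.4.6, pandas 2.3.3 and scipy 1.17.1, by code tested on simulated data. Intervals are exact binomial (Clopper-Pearson, 95%). With 1 library per condition no test was made. The comparison and its alternatives were chosen with earlier results of these data known. Named were chromosomes with the highest and lowest shares and, by width, width ratio and gap, the first 5 sites of each kind. Gene loci were planned but not analysed here, for want of an hg18 annotation, and the inputs were not analysed here.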

Additional observations from a re-analysis of the deposited data

How the results depend on the processing

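Dense runs were left out, and a gap of 20 bp was allowed, only after the data were seen. The 4 main results had 29 alternatives, of which 23 moved and 0 reversed. A reversal was not possible, because percentages and a median of 0 have no direction. The other 6 were 2 shares of Nutlin-3 peaks inside the original interval and 4 median width ratios that stayed at 0. The cause was not tested beyond the alternatives' own construction. Doxorubicin peaks shared with Nutlin-3 (63.5%) were 33.7% by a reciprocal overlap of at least 50%, 75.6% by midpoints within 200 bp, 21.03% with peaks of at least 80 bp, 65.8% on autosomes, 68.7% after merging within 500 bp, 78.07% within 1000 bp, 70.7% with adjoining peaks, 73.6% within 20 bp and 72.4% without dense runs. Nutlin-3 peaks shared with doxorubicin (10.8%) stayed at 10.7% on autosomes and without dense runs, and under the other 7 settings were, in the same order, 5.73%, 13.04%, 3.14%, 12.2%, 19.1%, 12.1% and 12.6%. The median log2 width ratio, 0, moved to 0.22 with peaks of at least 80 bp and to 0.74 after merging. Unshared doxorubicin peaks within 1000 bp of a Nutlin-3 peak (39.98%) were 42.96% on autosomes, 10.9% with peaks of at least 80 bp, 44.9% within 5000 bp, 36.1% within 200 bp and 57.3% without dense runs. Of 42 alternatives for chromosomes 21, 16, 15, Y and X, 23 stayed within the interval and 19 moved. A wider window around genes was not run, and leaving out a replicate was not possible with 1 library per condition. No paired analysis was possible because each group had 1 library. Depth is unknown, so it could not be set beside the list lengths.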

Other observations

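The number of further Nutlin-3 peaks nearby differed between shared doxorubicin peaks and the 2 kinds of unshared peak. Within 20 kb of the 1959 shared doxorubicin peaks there was a mean of 1.32 other Nutlin-3 peaks, and 815 (41.6%) had none. Around the 451 unshared peaks with a Nutlin-3 peak within 1000 bp the mean was 2.50, the near peak included. Around the 677 unshared peaks with no Nutlin-3 peak within 1000 bp the mean was 0.448 and 533 (78.7%) had none. Outside dense runs the means were 1.24 for 1928 shared peaks and 0.223 for 314 such unshared peaks. The gap was used to pick both unshared groups, which sets part of the contrast, so these values are a description.

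Nutlin-3 sites without a doxorubicin partner were mostly far from any doxorubicin peak. Of the 16192, 229 (1.41%) adjoined a doxorubicin peak, 1501 (9.27%) lay within 1000 bp and 10967 (67.7%) lay over 100 kb away, with a median gap of 235 kb. The doxorubicin list was far shorter, and how much of these gaps follows from its length was not tested. Outside dense runs, sharing with Nutlin-3 was highest for doxorubicin peaks of 80 to 100 bp, with 214 of 267 (80.1%, 74.9 to 84.8). It was lowest for those at least 300 bp wide, with 27 of 48 (56.2%, 41.2 to 70.5). The other width classes had 69.2% to 78.07%, many intervals overlapped, and width itself affects an overlap of 1 bp. Also outside dense runs, 1118 of the 1243 doxorubicin peaks met by DMSO were shared (89.9%). This compared with 807 of the 1373 in neither control (58.8%) and 7 of the 52 met by untreated peaks (13.5%).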
